A study of Saccharomyces cerevisiae with 58 samples.

Results

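The transcripts described here are those of the proteins of the cytosolic ribosome of budding yeast, named RPL for the large and RPS for the small subunit. A gene was a member when its probe set carried a Saccharomyces cerevisiae symbol made of RPL or RPS, a number and at most a letter A or B, and where a gene had several probe sets the brightest was used. This gave 122 genes out of 5449 measured, 70 of the large and 52 of the small subunit, read from 142 probe sets. The choice of genes went by symbol and that of probe sets by brightness, and neither used a difference between strains or times. For 95 members the probe set ended in _at, which marks probes for a single gene, and for 27 it ended in _s_at (22) or _x_at (5), which marks probes shared with a similar gene, usually the other copy of a duplicated pair. The annotation of the R64 assembly has 132 symbols of this form, and the other 10 were not analysed here.

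RNA was taken from 2 cultures of a B-cyclin mutant (15 arrays each) and 2 cultures of the wild type (14 arrays each), and hybridised to Affymetrix yeast arrays, so that each of the 58 arrays holds a single time point. Both strains are MATa BF264-15DU. The mutant carries clb1::URA3 and clb2::LEU2, with clb3::TRP1 and clb4::HIS2, further clb5::ARG4 and clb6::APE1, and lastly GAL1-CLB1:LEU2, that is, disruptions of all B-type cyclin genes, which encode activators of the kinase Cdc28, and a copy of CLB1 under a promoter that glucose represses. The wild type is labelled bar1, a marker the mutant label lacks. Small G1 cells had been collected by elutriation, a sorting by size, and were followed at 30°C in dextrose medium with sorbitol from 30 or 38 min to 254 or 262 min. Mutant culture 1 and wild-type culture 2 shared the later grid of times, and mutant culture 2 and wild-type culture 1 the earlier one.

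The ribosome is built from ribosomal RNAs and a fixed set of proteins needed in equal numbers, and in growing yeast its protein transcripts are among the most abundant mRNAs. Most of the genes exist as near-identical duplicates, the A and B copies. Rap1, Fhl1, Ifh1 and Sfp1 switch them on together when nutrients signal through the TOR and Sch9 kinases, and stress or slow growth lowers them together.

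The members' probe sets were bright on every array, and their measured changes were small. All 122 lay above the 95th percentile of the background probe sets (log2 9.06). Their mean signal over the 58 arrays ran from log2 12.36 to 14.87 with a median of 14.40, while the highest value of any gene on any array was 15.04 and the median gene averaged 10.85. These are brightness values of probe sets and not amounts of mRNA. Of the 100 brightest genes 65 were members, and of the 200 brightest 111. The median member spanned 0.15 and 0.27 log2 units over time in the mutant cultures, and 0.24 and 0.28 in the wild-type cultures, where the median of all genes spanned 0.77 and 0.90 in the mutant and 0.77 and 0.78 in the wild type.

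Taken as a set, the members had a lower median on the first array than at 62 to 118 min in every culture. The cultures of the 2 strains lay apart in the first window, and the sign of the difference turned during the course. No member was past the threshold between strains in that window, and the share given here was not tested. The members' share of the intensity summed over all genes averaged 13.3% and 13.0% in the mutant cultures at 30 to 54 min, against 12.1% and 12.2% in the wild-type cultures. At 62 to 118 min it was 13.6% and 13.8% in the mutant and 13.4% and 13.5% in the wild type, and at 126 to 182 min 13.1% and 13.4% against 13.5% and 13.7%. In the last part of the course, 190 to 262 min, the share was 12.2% and 12.4% in the mutant cultures, against 13.3% and 13.6% in the wild-type cultures. The mutant cultures therefore stood above the wild type at the start and below it at the end, with no overlap of cultures in either window. A lower signal in these bulk samples cannot be told apart between fewer cells of a kind and less RNA per cell.

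**Figure D1:**
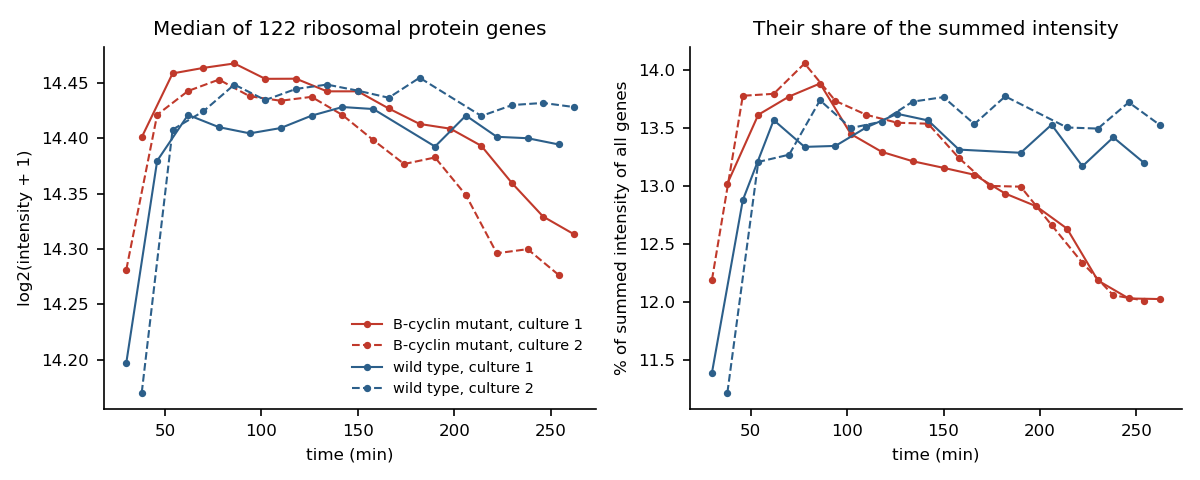
Median log2(intensity + 1) of the 122 ribosomal protein genes (left) and their share of the intensity summed over all genes in percent (right), each against time in minutes. Every point is 1 array, red for the B-cyclin mutant and blue for the wild type, solid for culture 1 and dashed for culture 2. In the right panel the mutant lines decline from their highest share, 13.9% and 14.1%, to their lowest at the end, while the wild-type lines have their lowest on the first array.

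The early climb rested on the first array. In the mutant cultures 9 and 39 of the 122 members had their lowest value there, against 110 and 118 in the wild-type cultures. Of all genes 19.9% and 26.2% did so in the mutant cultures, against 30.4% and 34.1% in the wild-type cultures. From 30 to 54 min to 62 to 118 min the change of the median member was 0.05 in the mutant, against 0.13 in the wild type. In the mutant 3 members rose and 0 fell past the threshold, among all genes 22.7% and 24.3%. In the wild type 53 rose and 0 fell, among all genes 30% and 29.7%. All calls here are at a limma adjusted p under 0.05 over all 5449 genes, fitted on the means of each culture in each window. The SEs are those of limma, which draws the variance of each gene toward that of all genes. They are not the spread of that gene's cultures alone.

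The 3 largest early rises of the wild type were those of RPL9B (0.52 ± 0.10, SE, adjusted p = 0.00194), RPS14B (0.50 ± 0.06, adjusted p = 0.000305) and RPS28B (0.39 ± 0.11, adjusted p = 0.0122), all B copies. In the mutant the called members were RPL9B (0.29 ± 0.10, adjusted p = 0.0382), RPS0A (0.20 ± 0.07, adjusted p = 0.0433) and RPS28A (0.17 ± 0.06, adjusted p = 0.0447). Without the first array of each culture, an alternative added after seeing the data, 0 members rose in the mutant, against 2 in the wild type. These counts, and those with a culture left out that follow, stand without the shares of all genes under the same settings. Leaving out wild-type culture 1 left 1 called rise in the wild type, and leaving out its culture 2 left 2. In the mutant it was 6 when its culture 1 was left out and 0 when its culture 2 was. The difference between the early changes of the strains was past the threshold for 0 members in either direction (limma; 9 at an unadjusted p under 0.05), among all genes for 0.312% more positive and 0.275% more negative in the mutant.

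After 62 to 118 min many members fell in the mutant, and no change of a member passed the test in the wild type. In the mutant 44 of the 122 members fell and 0 rose, a median change of -0.11, and the estimate was below 0 for all 122. Among all genes 27.6% fell and 26% rose. In the wild type 0 members fell and 0 rose (limma; 2 at an unadjusted p under 0.05), with a median of -0.01, among all genes 7.45% and 5.43%. The late change was more negative in the mutant for 15 members and more positive for 0 (median difference -0.10), among all genes 8.44% and 11.1%. The 44 falls covered both subunits, 27 of 70 large-subunit and 17 of 52 small-subunit genes, with medians of -0.12 and -0.11. With mutant culture 1 left out there were 27 falls, and with its culture 2 left out 23. There were also 27 with each array centred on the genes outside the set, under which the median change was -0.07. For these other settings the shares of all genes are not given.

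The decline was gradual, and it came earlier in mutant culture 2 than in mutant culture 1. Counted as members more than 0.2 log2 units below their own mean at 62 to 118 min, mutant culture 1 had 4 at 182 min, 10 at 198 min, 16 at 214 min, 23 at 230 min and 32 at 262 min. Mutant culture 2 had 2 at 158 min, 11 at 174 min, 14 at 190 min, 26 at 206 min, 38 at 222 min and 52 at 254 min. From 46 or 54 min on, no wild-type array had more than 2 such members. On the first arrays there were 1 and 42 such members in mutant cultures 1 and 2, against 60 and 73 in wild-type cultures 1 and 2. The lowest value of a member fell on the last 2 arrays for 97 and 75 members in the mutant cultures, against 5 and 0 in the wild-type cultures. Of all genes 23.1% and 15.3% did so in the mutant cultures, against 10.2% and 9.41% in the wild-type cultures.

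**Figure D2:**
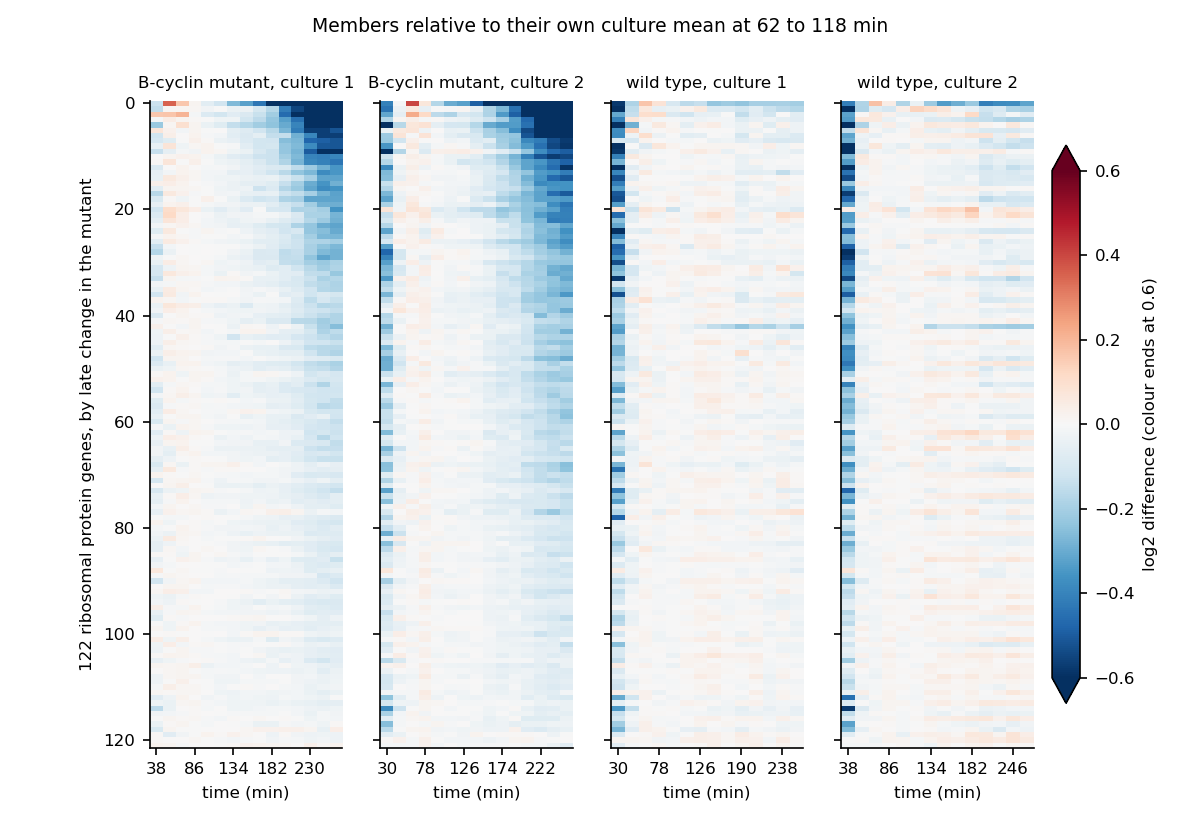
Each row is 1 of the 122 ribosomal protein genes, ordered by its late change in the mutant, and each column 1 array in order of time, for the 2 mutant and the 2 wild-type cultures. Colour is the log2 difference from the gene's own mean at 62 to 118 min in that culture, blue for lower and red for higher. The blue at the right of the mutant panels marks the late fall, and the blue first column of both wild-type panels and mutant culture 2 the low first array.

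RPL22B was the member that changed most. It encodes the minor copy of large-subunit protein L22, and the protein is known to hold back splicing of its own transcript. Its log2 intensity ran from a lowest of 11.36 over a median of 13.07 to a highest of 13.91 on the 30 mutant arrays, and from 12.79 over 13.18 to 13.67 on the 28 wild-type arrays. The highest mutant values fell at 54 and 62 min, and in each mutant culture every array from 198 min on was below every wild-type array. At 62 to 118 min it averaged 13.46 and 13.51 in the mutant cultures, against 13.37 and 13.49 in the wild-type cultures. At 190 to 262 min it averaged 11.73 and 11.67 in the mutant and 13.16 and 13.12 in the wild type.

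From 62 to 118 min to 190 to 262 min RPL22B fell by 1.78 ± 0.09 (SE) in the mutant (limma adjusted p = 8.15e-06), and its change in the wild type was -0.29 ± 0.09 (adjusted p = 0.0663). The changes differed by -1.49 ± 0.12 (adjusted p = 0.000304). RPL22A, the major copy, moved by -0.12 ± 0.05 in the mutant (adjusted p = 0.0813) and by -0.02 ± 0.05 in the wild type (adjusted p = 0.839).

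RPS14B and RPS9A followed. RPS14B encodes the minor copy of small-subunit protein S14, which is likewise known to restrain splicing of its own transcript. It averaged 13.93 and 13.79 in the mutant cultures at 62 to 118 min and 13.15 and 13.03 at 190 to 262 min, a fall of 0.77 ± 0.06 (limma adjusted p = 7.82e-05). In the wild-type cultures it averaged 13.81 and 13.79 and then 13.69 and 13.64 (change -0.14 ± 0.06, adjusted p = 0.188). The late mutant arrays of RPS14B came down to the level at which both wild-type cultures had started, 12.92 and 13.03 on their first arrays.

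RPS9A, a copy of small-subunit protein S9, which binds the ribosomal RNA early in assembly, fell by 0.71 ± 0.09 in the mutant (limma adjusted p = 0.000463). It averaged 13.10 and 13.12 at 62 to 118 min and 12.35 and 12.44 at 190 to 262 min there, and 12.96 and 12.89 and then 12.88 and 12.82 in the wild type, a change of -0.08 ± 0.09 (adjusted p = 0.625). The mutant cultures stood above the wild-type cultures of RPS9A in the earlier window and below them in the later one. The difference of the changes was -0.64 ± 0.13 for RPS9A (adjusted p = 0.0133) and -0.64 ± 0.09 for RPS14B (adjusted p = 0.00294). Of the other members past the threshold for that difference, RPL9B (-0.56), RPS27A (-0.49), RPL4B (-0.49) and RPS7B (-0.48) came next, and the remaining 8 lay between -0.38 and -0.25. Counts with a culture left out, given next, stand without the shares of all genes. Without either wild-type culture only 1 of the 15 was still past the threshold, RPL22B. The count was 8 without mutant culture 1.

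Compared between strains window by window, calls of members came in the last window alone. Averaged over the whole course, 0 members were higher and 1 lower in the mutant, with a median of -0.02, among all genes 5.69% and 5.07%. That member was RPL22B (-0.44 ± 0.09, limma adjusted p = 0.0253). The next 4 most negative of those whose cultures did not overlap, none past the threshold, were RPS28B (-0.17), RPL4B (-0.15), RPL9B (-0.14) and RPS27A (-0.12), and the most positive were RPS22B (0.10), RPL37B (0.05), RPS21B (0.03) and RPS29A (0.02). The call of RPL22B was lost without wild-type culture 1 (adjusted p = 0.0634) and without wild-type culture 2 (adjusted p = 0.0911).

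At 30 to 54 min 0 members were higher and 0 lower (limma; 0 at an unadjusted p under 0.05), among all genes 0.0734% and 0.0367%, although the median difference was 0.10. In 88 members (72.1%) both mutant cultures lay above both wild-type cultures, against 17.8% of all genes. Most members moved alike within a culture, so the 88 are not independent of each other. At 62 to 118 min 0 members were higher and 0 lower (median 0.02), among all genes 0.404% and 0.679%. At 126 to 182 min the counts were again 0 and 0 (median -0.01), among all genes 8.68% and 6.5%.

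At 190 to 262 min 11 members were lower and 0 higher in the mutant, with a median difference of -0.08. Among all genes 14.1% were lower and 17.5% higher, and the members' share of lower calls was 9.02%. With a trend of the variance on signal more members were called, as given below. How this share stands beside that of all genes therefore depends on how the spread was modelled. In 90 members (73.8%), likewise not independent, both mutant cultures lay below both wild-type cultures, against 35.1% of all genes. The called members were RPL22B (-1.44 ± 0.09, limma adjusted p = 0.000691), RPS14B (-0.58 ± 0.09, 0.0101), RPL9B (-0.49 ± 0.09, 0.0131), RPL4B (-0.47 ± 0.09, 0.016), RPS28B (-0.46 ± 0.10, 0.0194) and 6 more between -0.45 and -0.33, namely RPS9A, RPS27A, RPS7B, RPL36A, RPL27B and RPL15A. The only positive differences among members whose cultures did not overlap were those of RPS22B (0.08 ± 0.09, adjusted p = 0.52) and RPL37B (0.05 ± 0.09, adjusted p = 0.682). Of the counts given next, the one without mutant culture 1 stands without its share of all genes. Without wild-type culture 1 or without wild-type culture 2 the count was 1, RPL22B, and without mutant culture 1 it was 17. Among all genes leaving out a wild-type culture moved the calls to 519 and 598, from 1721 with all cultures.

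**Figure D3:**
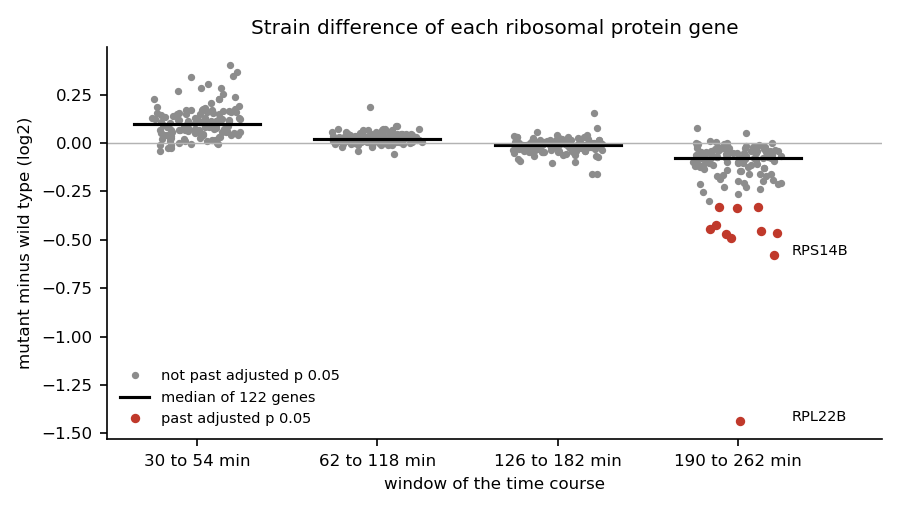
Log2 difference of each of the 122 ribosomal protein genes, mutant minus wild type, in 4 windows of the course. Each point is 1 gene, red where the limma adjusted p is under 0.05, and the bar is the median of the members. The bar moves down over the windows to -0.08 at 190 to 262 min, where 11 genes are red and RPL22B lies at -1.44.

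In some duplicated genes 1 copy was past the threshold and the other was not. Both copies were measured in 48 pairs, and in 31 of these each copy had a probe set of its own. At 190 to 262 min the strain difference was past the threshold for both copies in 0 of the 31 pairs, for 1 copy in 10 pairs (the A copy in 4, the B copy in 6) and for neither in 21. The difference between copies was not tested, and in 15 of the 31 pairs the 2 values lay within 0.1 of each other. In the late change of the mutant it was both copies in 7 pairs, 1 copy in 18 (A in 7, B in 11) and neither in 6. Among the 26 members with no second copy in the table, 1 fell late in the mutant, RPL35A, with a median of -0.07, against 20 of 48 A copies (median -0.12) and 23 of 48 B copies (median -0.15). The 26 are not all single-copy genes. Some, such as RPL18B and RPL35A, carry a letter A or B and were read by a shared probe set. No test of the difference between these classes was made.

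The pairs that differed most at 190 to 262 min, among those with own probe sets, were RPL22 (A copy -0.08, B copy -1.44), RPS14 (-0.08 and -0.58) and RPS28 (0.01 and -0.46). RPS28B, a copy of small-subunit protein S28 whose transcript is known to be degraded when the protein is in excess, averaged 14.17 and 14.16 in the mutant cultures at 62 to 118 min and 13.67 and 13.82 at 190 to 262 min. In the wild type it averaged 14.23 and 14.18 and then 14.21 and 14.20. RPS28A averaged 14.39 and 14.35 in the mutant in the late window and 14.36 and 14.37 in the wild type, so for this copy the strains overlapped. In the RPS9 pair, singled out after its values were seen, the A copy carried the difference (-0.45), and RPS9B had -0.07 ± 0.09 (limma adjusted p = 0.575). In all 4 pairs the copy with the larger change had the dimmer probe set, with means over the arrays of 13.00 for RPL22B and 14.49 for RPL22A, 13.62 for RPS14B and 14.53 for RPS14A, 14.07 for RPS28B and 14.36 for RPS28A, and 12.86 for RPS9A and 14.44 for RPS9B. The same was true of 9 of the 10 pairs in which 1 copy was past the threshold. The part of probe set brightness in the contrast between copies was not tested.

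**Figure D4:**
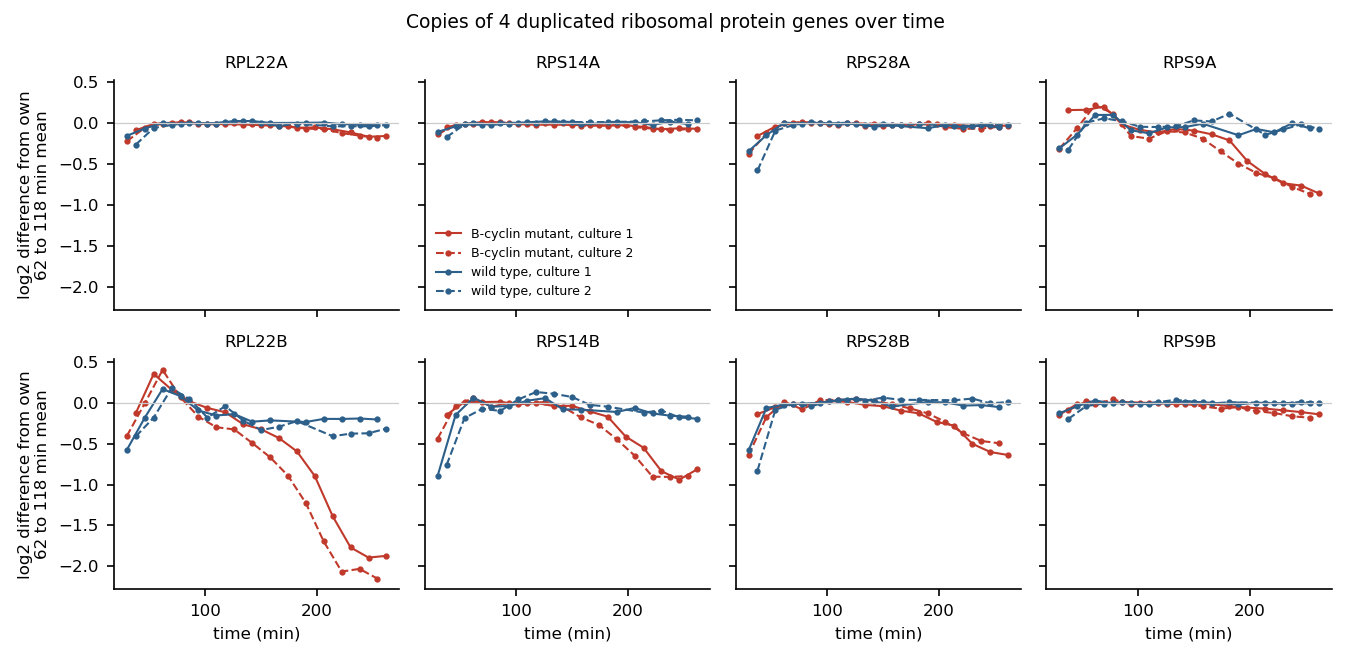
Time courses of the A and B copies of RPL22, RPS14, RPS28 and RPS9, as the log2 difference from each gene's mean at 62 to 118 min in the same culture, against time in minutes. Points are single arrays, red for the 2 mutant cultures and blue for the 2 wild-type cultures, with all panels on the same scale. RPL22B, RPS14B, RPS28B and RPS9A turn down in both mutant cultures and the other copies stay within about 0.2 of their earlier mean from 62 min on.

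The size of a member's change went with the kind and brightness of its probe set. At 190 to 262 min 11 of the 95 members with a probe set of their own were past the threshold (median -0.10), against 0 of the 27 read by a shared probe set (median -0.06). For the late change of the mutant these counts were 40 of 95 and 4 of 27. In the 20 genes that had probe sets of both kinds, the own probe set had the more negative late change in 17, with medians of -0.15 for own and -0.08 for shared sets. The gap was widest for RPL18B, with -0.64 by its own set and -0.07 by the shared set used here. Own sets that were not used also had -0.44 for RPL8A, -0.38 for RPS18B and -0.37 for RPL11B. The ranking of members by late change therefore depends on the choice of the brightest probe set. A probe set shared by 2 copies sums their signals.

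Across the 122 members, which share arrays and scaling, mean signal correlated with the late change in the mutant at Spearman's rho 0.72 and Pearson's r 0.68. The 40 dimmest members had a median of -0.25 and the 40 brightest -0.06. The same held for the early change of the wild type, 0.19 against 0.05. The 89 other genes among the 200 brightest had a median late change of 0.05 in the mutant, where 24 rose and 6 fell. The part that signal near the top of the range has in the members' small changes was not tested.

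**Figure D5:**
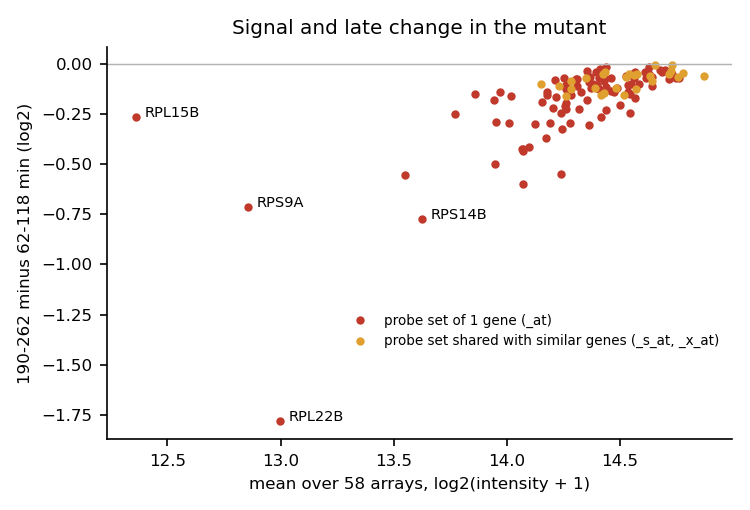
Late change of each of the 122 members in the mutant (log2, 190 to 262 min minus 62 to 118 min) against its mean log2(intensity + 1) over the 58 arrays. Red points are probe sets of a single gene and yellow points shared ones. All points lie below 0, and those of the brightest and the shared probe sets lie closest to it.

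Several proteins with special places in the ribosome did not pass the threshold in either strain after 62 to 118 min. Their SEs lean on the variance of all genes, so a missing call does not show that a gene was unchanged. RPL3, at the peptidyl transferase centre, had 14.48, 14.58 and 14.64 as its lowest, median and highest log2 intensity in the mutant, against 14.53, 14.60 and 14.64 in the wild type, and a late change of -0.10 ± 0.05 in the mutant (limma adjusted p = 0.112). RPL5, which binds the 5S ribosomal RNA, had -0.07 ± 0.05 (adjusted p = 0.237), RPL10, a late-joining protein of the large subunit, -0.05 ± 0.05 (0.402), and RPS3, near the mRNA entry, -0.07 ± 0.05 (0.217). The ranges of RPL3 in the 2 strains overlapped almost fully. Of the genes whose product is a fusion of ubiquitin to a ribosomal protein, RPL40B fell in the mutant by 0.14 ± 0.05 (adjusted p = 0.0364), while RPL40A and RPS31 were not past the threshold.

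Most members moved alike within a culture. The correlation of a member with the mean of the other members over time had a median of 0.92 in each mutant culture and 0.93 in each wild-type culture. Taken as the median over the 4 cultures it was above 0.8 for 101 members and below 0.5 for 5. It was highest for RPL34A and RPL19A (0.98 each) and RPS26B (0.98), and lowest for RPL41A (0.07), RPL1B (0.11) and RPL15B (0.40). RPL41A, which encodes a very short peptide of the large subunit, had r of 0.74 and 0.60 in the mutant cultures and -0.46 and -0.49 in the wild-type cultures. Its highest value fell on the first array of every culture. RPL1B, a large-subunit stalk protein gene, spanned 14.62 to 14.68 in the window means of the mutant and 14.63 to 14.70 in those of the wild type, so its window means differed by under 0.1 in either strain.

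Among genes outside the set, the 10 whose values over the 58 arrays were most like the members' mean were RKI1 (r = 0.96), an enzyme of the pentose phosphate pathway, RRP9 (0.95) and UTP21 (0.93), which take part in processing of ribosomal RNA, RAS1 (0.94), the translation termination factor gene SUP35 (0.94), the RNA polymerase genes RPB10 (0.94) and RPC17 (0.92), the initiation factor gene SUI3 (0.94), CIC1 (0.92) and GIS2 (0.92). These correlations run over arrays that share scaling and time courses and carry no test.

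No member was called periodic. The cycle term was fitted at 149 min in the mutant, against 103 min in the wild type, periods set by G1/S genes, and a call needed an adjusted p under 0.05 and a peak-to-trough fold of at least 1.5. In the mutant 0 members met this (limma; 3 at an unadjusted p under 0.05), against 10.6% of all genes, and in the wild type 0 (limma; 6 at an unadjusted p under 0.05), against 11.6%. Only 9 and 12 members in the mutant cultures, and 9 in each wild-type culture, had a whole range over time of 1.5-fold or more, so most members could hardly meet the call, and these counts say little about the set. Past the p alone were RPS14B (1.25-fold peak to trough) and RPS27A (1.14-fold) in the mutant, and RPL22B (1.19-fold) and RPS9A (1.13-fold) in the wild type.

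Of the gene lists set beside the members, the regulators, ribosome biogenesis, RNA polymerase I and chaperone lists had larger median changes late in the mutant than the members, and the P stalk and translation factor lists smaller ones. The members' changes went with the brightness of their probe sets, and the part of brightness in this comparison was not tested. Late in the mutant 27.6% of all genes fell and 26% rose, the shares beside which the counts below stand. Of 16 regulators of ribosomal protein genes, 10 fell and 2 rose late in the mutant (median -0.56), and in the wild type 0 did either (median -0.08). The largest falls were those of ABF1 (-1.12, limma adjusted p = 0.000419), a DNA-binding factor of many promoters, the activator genes SFP1 (-1.05, 0.000852) and IFH1 (-0.90, 0.00277), and TOD6 (-0.94, 0.0134), a repressor of ribosome biogenesis genes. YAK1 and RIM15, kinase genes of the stress and starvation response, were those that rose, by 0.89 and 0.28. The late change differed between the strains for SFP1 (-1.03, adjusted p = 0.0154), HMO1 (-0.97, 0.00124), ABF1 (-0.94, 0.0157) and RAP1 (-0.82, 0.0012), with TOR1 (-0.45, 0.0499) as the last past the threshold. FHL1 (-0.36, adjusted p = 0.203) and IFH1 (-0.53, 0.156) did not pass.

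Ribosome biogenesis genes fell late in the mutant in 26 of 34 cases and rose in 0 (median -0.63), led by NOG1 (-0.97) and RLP7 (-0.92). In the wild type 1 fell and 0 rose (median -0.26). RNA polymerase I genes fell in 11 of 15 and rose in 0 (median -0.51) in the mutant, and dedicated chaperones of ribosomal proteins fell in 2 of 7, a share near that of all genes, TSR2 (-0.77) and BCP1 (-0.66). The P stalk and ribosome-associated list, which holds the acidic proteins of the stalk, had 0 of 7 past the threshold there, with a median of -0.06. Of 19 measured translation factors 6 fell, a share near that of all genes, and 1 rose in the mutant (median -0.03), led by SUP35 (-0.62) and TIF4631 (-0.48).

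In the wild type from 30 to 54 min to 62 to 118 min, all 34 ribosome biogenesis genes (median 0.90) and all 7 chaperones (median 1.02) rose, as did 10 of 15 RNA polymerase I genes. Mitochondrial ribosomal protein genes went a different way late in the mutant, where 17 of 43 rose and 0 fell (median 0.21), with 1 rise and 0 falls in the wild type. The environmental stress list went the other way from the members late in the course. Late in the mutant 16 of its 21 genes rose and 1 fell (median 1.52), among them HSP42 (2.97), while in the wild type 0 did either. In the first windows of the wild type all 21 fell (median -2.60), over the same windows in which 53 of the members rose. In those windows of the mutant all 21 fell as well (median -1.99), while 3 members rose. The part of the stress response in the members' changes was not tested.

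The first array of each culture stood apart from the next, with a correlation over all genes of 0.94 and 0.90 in the mutant cultures and 0.93 and 0.90 in the wild-type cultures. Of the MATa markers all 6 fell late in the mutant (median -1.46), MFA2 with a change of -3.89. Compared between strains at 190 to 262 min, 5 were lower in the mutant and 1 higher (median -1.78). Among all genes 14.1% were lower and 17.5% higher. The higher marker was BAR1 (2.06), and the wild type is the strain labelled bar1. Of 4 alpha-cell markers 1 rose late in the mutant (STE3, 0.42) and 0 fell (median -0.24). Between strains at 190 to 262 min 1 alpha-cell marker was higher in the mutant and 2 were lower (median -0.46).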

How the data were processed

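The table holds the probe set intensities that the authors deposited for 58 arrays, on a linear scale, and no scanner files were used. The affy package, version 1.8.1, is named in the submitters' processing notes. The background correction, summary and scaling methods are not given in the sources used here. Array means lay between 2067 and 2121, so no further scaling was applied. Here log2(intensity + 1) was taken from the deposited intensity of the brightest probe set per gene, named through GEO's platform annotation with 12 symbols updated from R64 (5449 genes). Background was the 95th percentile of 1746 probe sets for another species.

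Means of each culture in 4 windows were tested with limma 3.58.1 (R 4.3.3), lmFit and eBayes, with Benjamini-Hochberg adjustment over all genes and calls under 0.05. Changes within a strain had culture as a block. Mutant arrays at 174 and 198 min, which have no wild-type counterpart, were left out of the window means and the tests on them. They entered the periodicity fits, the time courses, the choice of probe sets, and the mean signals, ranges and correlations over arrays. Periodicity was fitted over arrays, treated as independent, with culture and linear time. The series design states biological replicates, n = 2 cultures per strain, which limits precision, as does the number of arrays. The code was tested on simulated data.

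The members, though set by symbol alone, and the gene lists were chosen as a topic with earlier results of these data known. Named members were those with the 5 largest differences of each sign between non-overlapping strains over the course and at 190 to 262 min, the 3 largest calls of each change, the 3 most and least alike, the 3 pairs of most unequal copies and a short preset list. Others are the members behind small counts of calls. Other genes were the 10 most alike and up to 4 leading calls per list. YAK1, RIM15 and TOR1, FHL1 and IFH1 in the difference of changes, RPS9B and RPL35A were chosen after their values were seen.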

Additional observations from a re-analysis of the deposited data

Results flagged for a closer look

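For 15 members, 12.3% of the set, the late change differed between the mutant and the wild type by a limma test of the difference itself. The late change runs from 62 to 118 min to 190 to 262 min, and in all 15 it was more negative in the mutant. Among all genes it was more negative there in 8.44% and more positive in 11.1%. Most of the 15 calls were lost when either wild-type culture was left out. On the log2 scale the differences were -1.49 for RPL22B, -0.64 for RPS9A, -0.64 for RPS14B, -0.56 for RPL9B, -0.49 for RPS27A, -0.49 for RPL4B and -0.48 for RPS7B. They were -0.38 for RPL27B, -0.37 for RPL13A, -0.34 for RPL15A, -0.34 for RPL36A, -0.30 for RPL12A, -0.30 for RPS19A, -0.26 for RPL19A and -0.25 for RPL19B. RPL19A and RPL19B are both copies of the gene for large-subunit protein L19, and of every other pair only 1 copy is among the 15. For RPL4B and RPS19A the other copy, RPL4A or RPS19B, was read by a shared probe set, so these pairs do not separate the copies.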

How the results depend on the processing

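Counts of members past the threshold moved with how the spread was modelled, with single cultures and, for the early rises, with the first array, and 0 of them changed direction. With a trend of the variance on signal the counts were 2 over the course, 29 at 190 to 262 min, 20 and 91 for the early rises of the mutant and the wild type, 86 and 1 for their late falls, and 40 for the difference of the late changes. With culture as a random block over arrays they were 0 over the course, 2 at 126 to 182 min (1 higher, 1 lower) and 24 at 190 to 262 min. Centring on the genes outside the set gave 1 for the early rise and 27 for the late fall of the mutant. Without the first array of each culture the counts were 0 and 2 for the early rises of the mutant and the wild type, and 1 for the late fall of the wild type. The counts in this section stand without the shares of all genes under the same settings. They show how calls of members moved, and not how members compared with other genes.

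Leaving out 1 culture at a time gave 0 to 1 members over the course, 1 to 17 at 190 to 262 min, 0 to 6 for the early rise of the mutant, 1 to 2 for that of the wild type, 23 to 27 for the late fall of the mutant and 1 to 12 for the difference of the late changes. The deviations of same-numbered cultures had r = -0.06 over 5449 genes. This single value cannot settle whether the numbers pair cultures, and the main tests used no pairing. With the replicate block the count at 190 to 262 min was 8. For named members, 319 alternative values kept their direction and side of the threshold, 27 lost the call and 1 gained it.

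The brightness of the members' probe sets, close to the highest value on the arrays, and the 2 cultures per strain limit what these counts can show.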
